A study of Saccharomyces cerevisiae with 16 samples.

Results

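Delta elements are the long terminal repeats (LTRs) of the yeast retrotransposons Ty1 and Ty2. Of 13059 feature names shared by all arrays, 115 were delta elements. They were chosen by name alone: Y, a letter for the chromosome, L or R for the arm, W or C for the strand, then DELTA and a number, as in YALCDELTA2. Intergenic regions named after a delta element, whose names begin with I, were not counted as members. A test needed values from 3 or more arrays in each group. It could be made for 112 of the 115 members and for 12380 features in all. YOLCDELTA2, YPLCDELTA10 and YPRCDELTA22 fell short of it. The sources used here name no genome build, and no positions are given.

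Ty1 and Ty2 copy themselves through an RNA intermediate, and each full element is flanked by a pair of delta LTRs. Recombination between the pair removes the internal part and leaves a solo delta behind, so most deltas in the genome stand alone. Ty1 integrates preferentially upstream of genes transcribed by RNA polymerase III, which include the tRNA genes. Rrm3 is a DNA helicase that helps replication forks past stable protein complexes on DNA, tRNA genes among them, and Pol2 is the catalytic subunit of DNA polymerase epsilon, which travels with the fork. Because delta elements resemble each other in sequence, a spot can also capture DNA from other copies, and a value cannot be assigned with certainty to a single element.

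The study measured where MYC-tagged Pol2 or Rrm3 associated with DNA by chromatin immunoprecipitation on 2-colour arrays of PCR products. On each array the DNA recovered with a MYC antibody (IP) was set against genomic input. All cells were haploid budding yeast of the W303a background, grown asynchronously in rich medium and collected at an optical density of 0.25. On 6 arrays there was a Pol2 IP labelled rrm3 delete, from cells with Pol2-13MYC and a deletion of RRM3. On 5 arrays there was an Rrm3 IP from cells with MYC-tagged Rrm3. On 4 arrays there was a Pol2 IP from wild-type cells with Pol2-13MYC and intact RRM3. An IP from cells without a tag was not analysed here. Values are log2 ratios of IP over input after each array was centred, so that 0 is the median feature of that array and 1 is a doubling over it.

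Several arrays limit what follows. The feature of RRM3 itself (YHR031C) ranked between percentiles 1.54 and 11.3 of input signal on 5 arrays labelled rrm3 delete, but at 49.3 on array 239. It lay between 30.3 and 95.6 on the Rrm3 IP arrays and between 31.2 and 91.4 on the wild-type arrays. Array 239 therefore goes against its label at this feature, and counts are also given without it. At tRNA gene features its median was 0.82, within the range of 0.81 to 0.99 on the other 5 arrays labelled rrm3 delete. That median lay between -0.30 and 0.55 on the Rrm3 IP arrays and between -0.11 and 0.03 on the wild-type arrays. The POL2 feature (YNL262W), which no group deletes, ranked between 44.9 and 83.2, between 24.2 and 76.8 and between 26.1 and 42.2 in the same order of groups. Array 136, a wild-type Pol2 IP, is labelled with its IP in Cy5, yet as labelled it correlated with each of the other 14 grouped arrays at between -0.54 and -0.15 over all features. The deposited table holds it turned, and that direction was used, so its direction is not settled and results with the labelled direction are given as well. Rrm3 IP arrays 041 and 031 had another layout, with 18432 spots against 14976 on each other array. The middle delta element had an input signal at percentiles 65.1 and 64.7 there, against 34.6 to 49.4 on the other grouped arrays. Array 031 also had the widest spread over all features, with an SD of 1.03 against 0.45 to 0.80 on the other grouped arrays. Its median at tRNA gene features was -0.30, against 0.41 to 0.55 on the other Rrm3 IP arrays. Arrays 136 and 182 had 49.7% and 54.0% of their spots flagged and measured only 54 and 59 delta elements, against 91 to 115 on the other grouped arrays. The text for wild-type array 086 also names an H3K36me2 antibody. Dye swaps are described as technical replicates, but not which arrays came from 1 extract. The p-values thus rest on differences between arrays, part of which may be technical, and not on counted cultures.

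By fitted value, more delta elements lay below the array median than above it in every group, and the shift was deepest in the wild-type Pol2 IP. For the Rrm3 IP it rested on single arrays, as the fitted median of -0.06 was 0.0012 without array 185 and -0.15 without array 184. In rrm3 delete the fitted median of -0.23 was 0.011 with swapped arrays alone. The middle delta element lay at -0.30, -0.51, -0.24, -0.14, -0.12 and 0.15 on arrays 040, 137, 239, 183, 240 and 182 labelled rrm3 delete. On Rrm3 IP arrays 041, 031, 088, 184 and 185 it lay at -0.05, -0.55, -0.08, 0.10 and -0.14. On wild-type arrays 039, 086, 136 and 230 it lay at -0.46, -0.55, -0.23 and -0.34. All 4 wild-type arrays were thus below 0, while 1 array in each of the other groups was above it. With array 136 as labelled its value changes sign and the wild-type mean is -0.28. The means of these array medians were -0.19 ± 0.22 (SD, n = 6) for rrm3 delete, -0.14 ± 0.24 (n = 5) for the Rrm3 IP and -0.40 ± 0.14 (n = 4) for wild type, so the ranges overlap. The share of measured delta elements below 0 was 37.3% to 71.3%, 41.1% to 67.7% and 63.0% to 83.9% of an array in the same order.

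**Figure D1:**
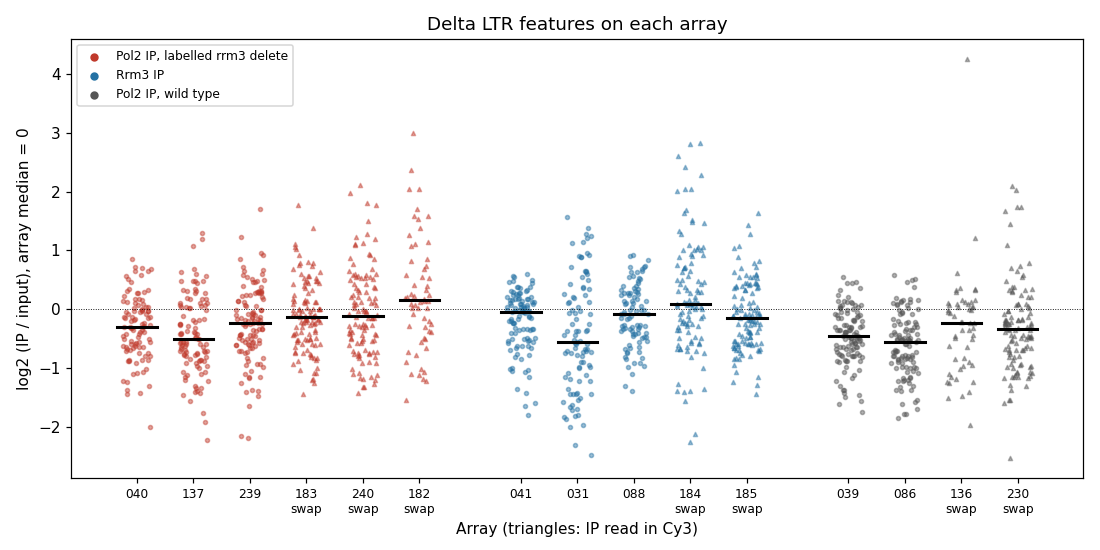
Log2 ratio of IP over input (y axis, array median at 0) of each measured delta element on each of the 15 grouped arrays (x axis), with circles for an IP read in Cy5, triangles for an IP read in Cy3 and a black bar at the median. The wild-type medians lie between -0.55 and -0.23, those labelled rrm3 delete between -0.51 and 0.15, and those of the Rrm3 IP between -0.55 and 0.10.

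The dye orientation moved with these values. Within the arrays labelled rrm3 delete, the median averaged -0.35 on 3 forward arrays (IP in Cy5) and -0.04 on 3 swapped ones. It averaged -0.23 on 3 forward and -0.02 on 2 swapped arrays of the Rrm3 IP, and -0.51 on 2 forward and -0.28 on 2 swapped arrays of wild type (array 136 counted as swapped). Averaged over the groups, forward minus swapped had a median of -0.20 over delta elements and -0.01 over all features. Across delta elements, pairs of arrays had a median Pearson correlation of 0.51 when both were forward (28 pairs), 0.64 when both were swapped (21 pairs) and 0.17 when they differed in orientation (56 pairs). The medians were 0.35 for 31 pairs within a group and 0.35 for 74 pairs between groups. These correlations share the same spots and describe the arrays only. A dye term in the fit took up the average difference between the orientations at each feature.

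Against the array median, delta elements were called lower more often than features in general in all 3 groups in the fit of all grouped arrays. The excess was smallest in the Rrm3 IP, where it was not kept in all settings given below. The test was limma's moderated linear model over all 12380 features with Benjamini-Hochberg adjustment at 0.05. In the Pol2 IP labelled rrm3 delete, 24 of 112 delta elements (21.4%) were lower, against 6.95% of all features, and 8 (7.14%) were higher, against 9.39%. In the Rrm3 IP, 22 (19.6%) were lower, against 12.7% of all features, and 9 (8.04%) were higher, against 11.0%. In the wild-type Pol2 IP, 25 (22.3%) were lower, against 2.37% of all features, and 0 were higher, against 0.937%. At an unadjusted p under 0.05 the wild-type test also placed 0 delta elements higher and 46 (41.1%) lower, against 7.80% and 9.01% of all features.

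The fitted values had a median of -0.23 in rrm3 delete (range -1.25 to 0.88), -0.06 in the Rrm3 IP (-1.25 to 1.51) and -0.38 in wild type (-1.36 to 0.50). Over all features the medians were 0.0012, -0.02 and 0.01. Below 0 on every array that measured them were 31 delta elements in rrm3 delete (27.7%, against 16.7% of all features), 22 in the Rrm3 IP (19.6%, against 10.5%) and 64 in wild type (57.1%, against 21.8%). Above 0 on every array were 12 (10.7%, against 17.5%), 10 (8.9%, against 11.5%) and 6 (5.4%, against 20.1%).

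The wild-type count depended on single arrays. It was 6, 8, 15 and 6 without arrays 039, 086, 136 and 230, where 0.452%, 0.832%, 1.53% and 0.767% of all features were lower. With array 136 as labelled 1 delta element was lower in wild type, at a median of -0.34, and 0.226% of all features were. Calls over all features thus fell in the same settings. With that direction 13 were lower in rrm3 delete, against 5.70% of all features. In the Rrm3 IP 14 were lower, near the share of all features (11.1%). Without array 239, 16 were lower and 6 higher in rrm3 delete, against 4.45% and 6.53% of all features. Without array 240, 15 were lower and 4 higher there, against 4.17% and 6.34%, and without array 040 4 were higher, against 6.03%.

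The delta elements that were low in one group tended to be low in the others. Across the 112 members, fitted means correlated at a Pearson r of 0.75 (Spearman 0.77) between rrm3 delete and wild type, 0.72 (0.69) between the Rrm3 IP and wild type, and 0.59 (0.59) between the Rrm3 IP and rrm3 delete. The points share spots, PCR products, dye orientations and a common estimate of spread per feature, and no p is given. The same correlations and shared calls were not worked out over all features. Whether they are particular to delta elements was therefore not tested. Of the members called lower, 20 were shared by rrm3 delete (83.3% of its 24) and wild type (80.0% of its 25), 17 by the Rrm3 IP (77.3% of its 22) and wild type (68.0%), and 16 by the Rrm3 IP (72.7%) and rrm3 delete (66.7%). The following 15 members were lower in all 3 groups: YBRWDELTA16, YCRCDELTA6, YCRWDELTA11, YDRWDELTA12, YDRWDELTA23, YELCDELTA4, YERWDELTA13, YERWDELTA21, YFRWDELTA7, YGLCDELTA5, YHRCDELTA4, YHRCDELTA5, YHRCDELTA11, YHRWDELTA9 and YPRWDELTA14.

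**Figure D2:**
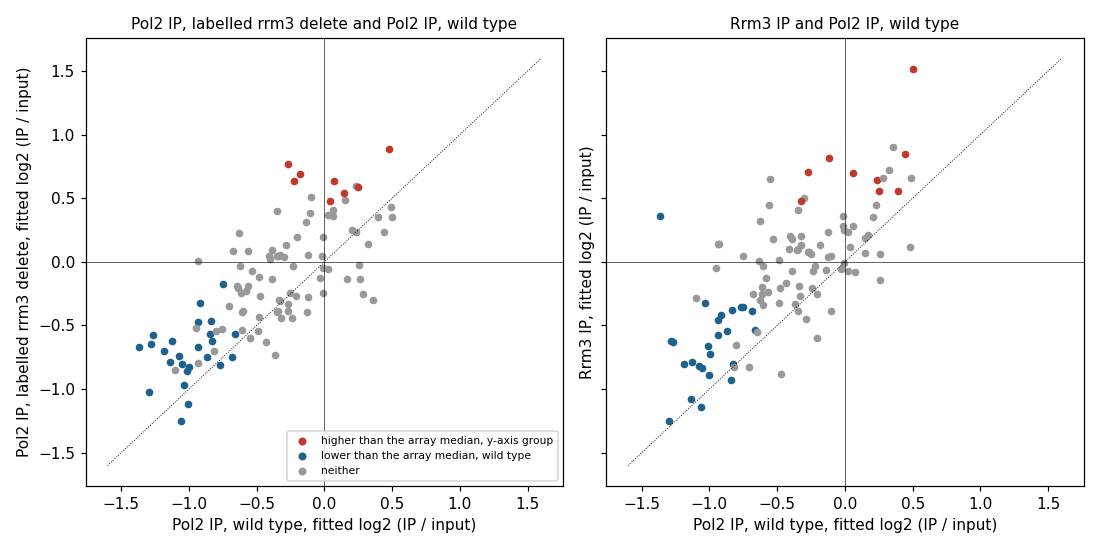
Fitted log2 ratio of each of the 112 tested delta elements in the Pol2 IP labelled rrm3 delete (left, y axis) and in the Rrm3 IP (right, y axis) against the wild-type Pol2 IP (x axes), with the dotted line at equal values. Red points were higher than the array median in the y-axis group (8 on the left, 9 on the right), other points called lower in wild type are blue, and 81 of 112 points on the left and 94 of 112 on the right lie above the line.

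YHRCDELTA11 was the lowest delta element in rrm3 delete and among the 5 lowest in the Rrm3 IP. It measured -0.87, -1.41, -1.15, -1.44 and -1.33 on arrays 040, 137, 239, 183 and 240 labelled rrm3 delete, -0.51, -1.80, -0.97, -1.27 and -1.07 on Rrm3 IP arrays 041, 031, 088, 184 and 185, and -1.07, -1.08, -1.16 and -0.93 on wild-type arrays 039, 086, 136 and 230. Every array that measured it was below 0, and the groups overlapped. Its fitted means were -1.25 ± 0.16 (SE, adjusted p = 6.53e-05) in rrm3 delete, -1.14 ± 0.16 (adjusted p = 0.000524) in the Rrm3 IP and -1.06 ± 0.17 in wild type (adjusted p = 0.00376), from limma. In rrm3 delete and the Rrm3 IP its call held under all 30 alternative settings.

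YHRWDELTA9, on the same arm, was among the 5 lowest in each group. It measured -1.44, -1.64, -0.42, -0.43 and -1.10 on arrays 040, 239, 183, 240 and 182 labelled rrm3 delete, -1.79, -1.83, 0.14, -1.57 and -1.29 on Rrm3 IP arrays 041, 031, 088, 184 and 185, and -1.30, -1.20, -1.51 and -1.17 on the wild-type arrays 039, 086, 136 and 230. Only Rrm3 IP array 088 lay above 0. Its fitted means were -1.02 ± 0.24 (adjusted p = 0.00877), -1.25 ± 0.24 (adjusted p = 0.00365) and -1.30 ± 0.27 (adjusted p = 0.0144) in limma. The calls were lost under 4, 1 and 7 of 30 alternatives in the same order, with an adjusted p of up to 0.786 in wild type. YHRCDELTA5 and YHRCDELTA4 made up the rest of a set of 4 from the right arm of chromosome VIII that was lower in all 3 groups. YHRCDELTA5 measured -1.03, -1.30, -1.25 and -1.15 on the wild-type arrays, with a fitted mean of -1.18 ± 0.21 (adjusted p = 0.00616). In the Rrm3 IP YHRCDELTA4 had a fitted mean of -0.93 ± 0.16 (adjusted p = 0.00279).

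Other members at the low end came from several chromosomes. YERWDELTA21 ran from -1.47 to -0.80 on 6 arrays labelled rrm3 delete with a median of -1.15. It measured -0.34, -0.99, -0.31, -2.12 and -0.48 on the Rrm3 IP arrays in the order given above, and -0.49, -1.16 and -1.16 on wild-type arrays 039, 086 and 230. All of these were below 0, and the Rrm3 IP had the widest spread. Its fitted means were -1.11 ± 0.18 in rrm3 delete (adjusted p = 0.000662) and -0.89 ± 0.20 in the Rrm3 IP (adjusted p = 0.00757). YLRWDELTA4 at -0.97 ± 0.19 (adjusted p = 0.00266) and YELCDELTA4 at -0.85 ± 0.15 (adjusted p = 0.000905) completed the 5 lowest in rrm3 delete. YCRCDELTA6 at -1.08 ± 0.19 (adjusted p = 0.00225) was among the lowest in the Rrm3 IP. In wild type YKRWDELTA10 was lowest at -1.36 ± 0.33 (adjusted p = 0.0390), followed after YHRWDELTA9 by YDRWDELTA23 at -1.28 ± 0.20 (adjusted p = 0.00315) and YBLWDELTA6 at -1.27 ± 0.23 (adjusted p = 0.00706). The YKRWDELTA10 call was lost under 14 of 29 alternatives.

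The high end held fewer members. The 8 called higher in rrm3 delete were YJLCDELTA6, YALCDELTA2, YERWDELTA17, YOLCDELTA8, YJRWDELTA14, YKRCDELTA11, YKLWDELTA1 and YJRWDELTA20, at fitted means between 0.48 and 0.88. YJLCDELTA6 led with 0.88 ± 0.19 (adjusted p = 0.00506), and its 6 arrays ran from 0.18 to 1.71 around a median of 0.93. It measured 0.60, -1.12, -0.05 and 0.45 on Rrm3 IP arrays 041, 031, 088 and 185, and 0.36, 0.14 and 0.65 on wild-type arrays 039, 086 and 230, so the groups overlapped. YJRWDELTA14 had 0.63 ± 0.16 (adjusted p = 0.00978) in rrm3 delete. The 9 called higher in the Rrm3 IP were YILCDELTA5, YJLWDELTA16, YILCDELTA2, YALCDELTA2, YMRWDELTA16, YBLWDELTA3, YDRWDELTA31, YKRCDELTA11 and YJLWDELTA10. Only YALCDELTA2 and YKRCDELTA11 stood on both lists.

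The 9 calls in the Rrm3 IP also depended on single arrays. They fell to 2 without array 184, to 4 without array 039 and to 5 without each of arrays 086, 230, 040, 183, 239 and 240. The share of all features called higher there was 4.94% without array 184 and between 9.26% and 9.79% without each of the others. YILCDELTA5, the highest, measured 0.29, 1.28, 2.83 and 1.64 on Rrm3 IP arrays 041, 031, 184 and 185. It ran from -1.77 to 3.0 on the arrays labelled rrm3 delete, with all 3 forward arrays below 0 and all 3 swapped arrays above it, and measured -0.46 and -0.80 on forward and 1.66 on swapped wild-type arrays. YJLWDELTA16 split the same way in rrm3 delete, with -0.77 and -2.15 on forward and 1.77 and 2.10 on swapped arrays. On Rrm3 IP arrays 041, 031, 088, 184 and 185 YJLWDELTA16 measured -0.66, 0.54, -1.39, 2.80 and 1.44, on both sides of 0. The fitted means of YILCDELTA5 and YJLWDELTA16 in the Rrm3 IP were 1.51 ± 0.33 (adjusted p = 0.00690) and 0.85 ± 0.28 (adjusted p = 0.0430). The YJLWDELTA16 call was lost under 11 of 28 alternatives, and its sign changed in 1. YPLWDELTA11 and YORWDELTA19 had similar fitted means of 0.90 and 0.72 that did not pass (adjusted p = 0.0695 and 0.0770). In wild type the 5 highest, YILCDELTA5, YOLWDELTA6, YJLCDELTA6, YJLWDELTA16 and YDRWDELTA31, had fitted means between 0.39 and 0.50, and none passed (adjusted p from 0.326 to 0.609).

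Only 1 delta element had a called difference in Pol2 association between cells labelled rrm3 delete and wild type. Of 112 members, 1 (0.893%) was higher in rrm3 delete than in wild type, against 0.557% of all features, and 0 were lower, as for all features. At an unadjusted p under 0.05, 14 members (12.5%) were higher and 0 lower, against 4.50% and 0.953% of all features. The fitted difference was above 0 for 81 members and below 0 for 31, with a median of 0.25, an interquartile range of -0.04 to 0.43 and extremes of -0.66 and 1.04. Over all features the median was 0.0008 and the interquartile range -0.16 to 0.17. For 13 members (11.6%) every rrm3 delete array exceeded every wild-type array, against 4.82% of all features. The reverse was true for 0 members, against 1.68%. These counts use the deposited direction of array 136. The median difference was 0.21 without array 239 and 0.13 with array 136 as labelled, and no member was called in either setting, against 0.153% and 0.347% of all features higher.

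YERWDELTA17, on the right arm of chromosome V, was the member called. It measured 0.85, 1.29, 1.23, 0.46, 0.13 and 0.20 on arrays 040, 137, 239, 183, 240 and 182 labelled rrm3 delete, with the 3 forward arrays the highest, and 0.10, 0.06, -0.44 and -0.45 on wild-type arrays 039, 086, 136 and 230. With array 136 in the deposited direction the groups did not overlap, the closest values being 0.13 and 0.10. With array 136 as labelled its value changes sign, and the groups overlap. The fitted difference was 0.87 ± 0.18, or 1.83-fold (limma, adjusted p = 0.0435), and over 29 alternatives it stayed between 0.71 and 0.93 while the adjusted p ran from 0.00765 to 0.589. It missed the threshold without any one of arrays 039, 086, 136, 230, 040, 183, 137, 239, 240, 182, 041 or 184, where the count of called members was 0, and without array 031 the count was 3, against 1.91% of all features. Of the Rrm3 IP arrays, 041, 184 and 185 measured it at 0.46, -0.35 and -0.07.

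YALCDELTA2, on the left arm of chromosome I, had the largest fitted difference but did not pass. It measured 0.72, 0.67, 0.59, 0.76, 0.49 and 1.37 on arrays 040, 137, 239, 183, 240 and 182 labelled rrm3 delete, 0.28, 0.64, 2.0 and -0.11 on Rrm3 IP arrays 041, 088, 184 and 185, and -0.56, -0.48, -0.05 and 0.01 on wild-type arrays 039, 086, 136 and 230. Every rrm3 delete array exceeded every wild-type array, whereas the Rrm3 IP overlapped both. The fitted difference of rrm3 delete minus wild type was 1.04 ± 0.31 (2.05-fold), with an adjusted p of 0.245 in limma. Its fitted means were 0.77 ± 0.19 in rrm3 delete (adjusted p = 0.0124) and 0.70 ± 0.24 in the Rrm3 IP (adjusted p = 0.0427), and in wild type -0.27 ± 0.24 did not pass (adjusted p = 0.633). The call in the Rrm3 IP was lost under 17 of 30 alternatives.

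YOLCDELTA8 was also higher on every rrm3 delete array than on any wild-type array. It measured 0.64, 0.48, 0.51, 0.54 and 0.93 on arrays 040, 137, 239, 183 and 240 labelled rrm3 delete, against -0.15, -0.26, -0.24 and -0.24 on wild-type arrays 039, 086, 136 and 230. There was no overlap, and the wild-type arrays had an SD of 0.05. The fitted difference was 0.85 ± 0.25 (adjusted p = 0.212 in limma), and it passed without array 031 (adjusted p = 0.00953) and without arrays 031 and 041 (adjusted p = 0.0117), although neither array belongs to the groups compared. YLRWDELTA12 at 0.94 ± 0.56 and YFLWDELTA1 at 0.85 ± 0.36 were the other members among the 5 largest, with adjusted p of 1 and 0.781. The largest negative differences, of YPLWDELTA11 (-0.66), YJLWDELTA9 (-0.53), YERWDELTA12 (-0.39), YHRCDELTA12 (-0.37) and YBRCDELTA11 (-0.31), all had an adjusted p of 1.

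**Figure D3:**
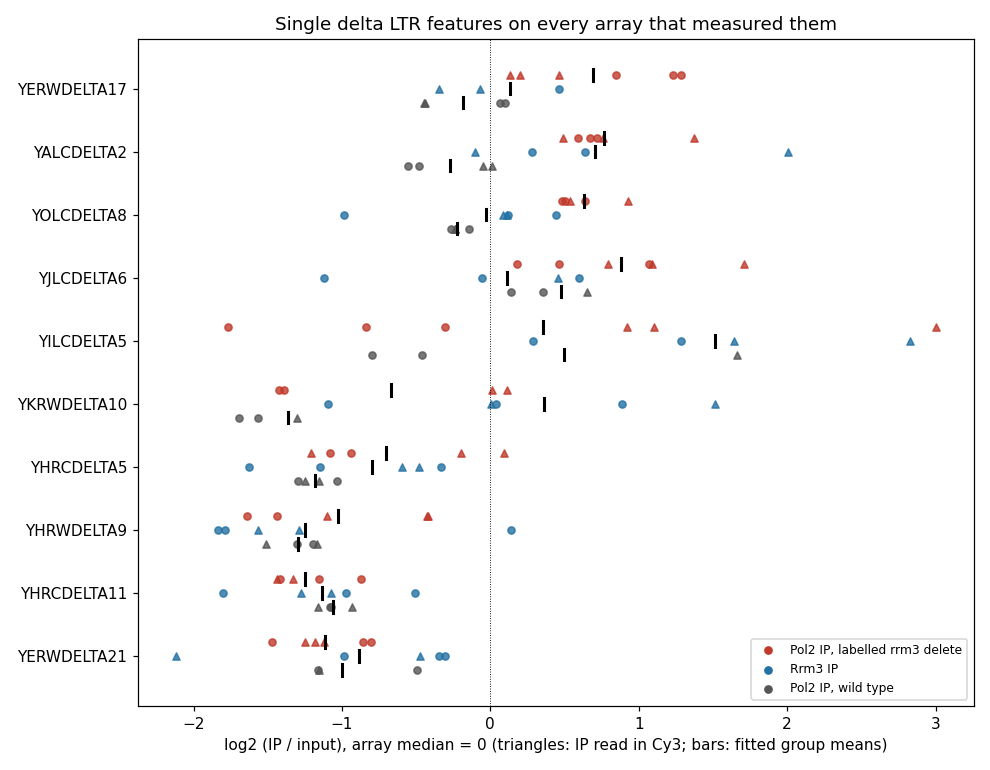
Log2 ratio of IP over input (x axis, array median at 0) of 10 delta elements (rows) on every array that measured them, with circles for an IP read in Cy5, triangles for Cy3 and black bars at the fitted group means. For YERWDELTA17, YALCDELTA2 and YOLCDELTA8 the rrm3 delete arrays (red) all lie right of the wild-type arrays (grey), and for YILCDELTA5 the circles and triangles of rrm3 delete lie on opposite sides of 0.

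No delta element had a called difference between the Rrm3 IP and the wild-type Pol2 IP, which measure different proteins. In the Rrm3 IP minus the wild-type Pol2 IP, 0 of 112 members were called, against 0.00808% of all features higher and 0% lower. At an unadjusted p under 0.05 limma placed 16 members (14.3%) higher and 0 lower, against 4.53% and 6.21% of all features. The fitted difference was above 0 for 94 members and had a median of 0.31, against -0.01 over all features. For 8 members (7.1%) every Rrm3 IP array exceeded every wild-type array, against 2.71% of all features, and the reverse held for 0, against 2.38%. This difference and that of rrm3 delete share the 4 wild-type arrays. With array 136 as labelled the median was 0.22.

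YKRWDELTA10 had the largest difference. It measured 0.04, 0.89, -1.09, 1.51 and 0.0020 on Rrm3 IP arrays 041, 031, 088, 184 and 185, against -1.56, -1.69 and -1.30 on wild-type arrays 039, 086 and 230. All Rrm3 IP arrays lay above the wild-type ones. On arrays labelled rrm3 delete it measured -1.42 and -1.39 on forward arrays 137 and 239 and 0.11 and 0.0080 on swapped arrays 183 and 240. The fitted difference from wild type was 1.73 ± 0.42, with an adjusted p of 0.265 in limma. YKRCDELTA9 followed at 1.20 ± 0.43 (adjusted p = 0.353), then YLRWDELTA12 at 1.08, YBLWDELTA10 at 1.07 and YILCDELTA5 at 1.01 (adjusted p = 0.520, 0.552 and 0.499). At the other end YGRWDELTA26, YERCDELTA10, YELCDELTA3, YJLCDELTA6 and YERWDELTA25 lay between -0.41 and -0.28.

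Rrm3 against Pol2 in cells labelled rrm3 delete gave no called delta element. Over all features 0.412% were higher and 1.91% lower in the Rrm3 IP. Limma placed 9 members (8.04%) on each side at an unadjusted p under 0.05. Over all features 7.54% were higher and 11.6% lower, so the members' counts were near those shares. The fitted difference was above 0 for 70 members, with a median of 0.10, against -0.02 over all features. YKRCDELTA9 was highest at 1.25 ± 0.37 (adjusted p = 0.0928), ahead of YPLWDELTA11 at 1.20, YILCDELTA5 at 1.16, YILCDELTA2 at 1.09 and YKRWDELTA10 at 1.03. YERCDELTA10 (-0.79), YKLCDELTA2 (-0.79), YJLCDELTA6 (-0.77), YERWDELTA25 (-0.77) and YJRWDELTA14 (-0.71) were lowest, at adjusted p from 0.113 to 0.235. Single arrays changed these counts: 3 members were higher without array 185 (1.32% of all features), 1 without array 182 (0.452%), and 1 was higher and 1 lower without array 088 (0.767% and 2.69%). For 1 member (0.9%), YOLCDELTA8, all Rrm3 IP arrays lay below all rrm3 delete arrays, against 3.28% of all features, and for 0 members above them, against 1.75%.

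In the difference between rrm3 delete and wild type, the delta elements stood above Ty elements and below tRNA gene features. The difference of rrm3 delete minus wild type had a median of 0.25 over 112 delta elements, 0.30 over 24 sigma, tau and omega LTRs, which belong to other Ty families, and 0.03 over 24 Ty elements. It was 0.22 over 194 regions named after a delta element, 0.49 over 238 regions beside tRNA genes and 0.91 over 41 tRNA gene features. Of the tRNA gene features 8 (19.5%) were called higher and of the regions beside them 10 (4.2%). This compares with 1 delta element (0.893%) and 0.557% of all features. In the wild-type Pol2 IP the fitted means of these lists had medians of -0.38, -0.36, -0.45, -0.27, 0.02 and -0.0027 in that order. The tRNA list therefore lay near the array median in wild type, while the LTR and Ty lists and the regions named after a delta element lay below it. Differences between lists were not tested.

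For 75 delta elements the array also held a region of the same name with an I in front. Across these pairs the fitted means of element and region had a Pearson correlation of 0.50 in rrm3 delete, 0.18 in the Rrm3 IP and 0.35 in wild type (Spearman 0.50, 0.21 and 0.34), from the same arrays. Of the members called higher in rrm3 delete 7 had such a region, and 4 of these regions were called higher too. Of 14 members called lower there, 7 regions were lower, 1 was higher and 6 were not called. Among all 194 tested regions named after a delta element, 16.5% were higher and 21.1% lower in rrm3 delete. Of the regions of 12 members called lower in the Rrm3 IP, 3 were lower and 9 not called, against 20.6% of such regions lower. For 12 members called lower in wild type, 5 regions were lower and 7 not called, against 13.9%. The regions of 5 members called higher in the Rrm3 IP split into 1 called higher, 2 called lower and 2 not called. There YDRWDELTA31 had 0.56 and its region -1.42 (adjusted p = 0.00152), and YMRWDELTA16 had 0.70 and its region -0.75 (adjusted p = 0.00858). The region named after YALCDELTA2 was called higher in rrm3 delete at 0.85 (limma, adjusted p = 0.000375), as was that of YERWDELTA17 at 0.82 (adjusted p = 0.00179) and that of YJLCDELTA6 at 0.73 (adjusted p = 0.000917). The region named after YHRCDELTA5 was lower in rrm3 delete at -1.46 (adjusted p = 0.0006) and in wild type at -1.35 (adjusted p = 0.0123). These regions were picked for the elements already described.

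How bright a delta spot was in the input moved with its ratio. The input signal of each feature was ranked as a percentile among all features of its array. Across the 112 members the Spearman correlation of the median percentile with the fitted mean was -0.36 in rrm3 delete, -0.68 in the Rrm3 IP and -0.50 in wild type, and across the 12268 other features -0.21, -0.45 and -0.30. The input signal also enters the ratio as its denominator. Among the 38 dimmest members, up to percentile 34.0, the fitted medians were 0.03, 0.26 and -0.01 and 0, 0 and 1 were lower. The 28 of them without a record of a failed PCR had fitted medians of -0.03, 0.19 and -0.21. Among the 37 brightest, above percentile 52.8, they were -0.47, -0.38 and -0.61 and 15 were lower in each group (40.5% of them). Other features within the same bounds had medians of 0.13, 0.28 and 0.17 when dim, where 2.13%, 2.49% and 0.486% were called lower. When bright they had -0.06, -0.18 and -0.06, where 9.67%, 20.9% and 3.58% were called lower. The medians of delta elements were lower in both ranges, by little among dim ones in the Rrm3 IP (0.26 against 0.28). Dim members had a median percentile of 25.3, against 22.5 for the other dim features, and these differences were not tested.

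**Figure D4:**
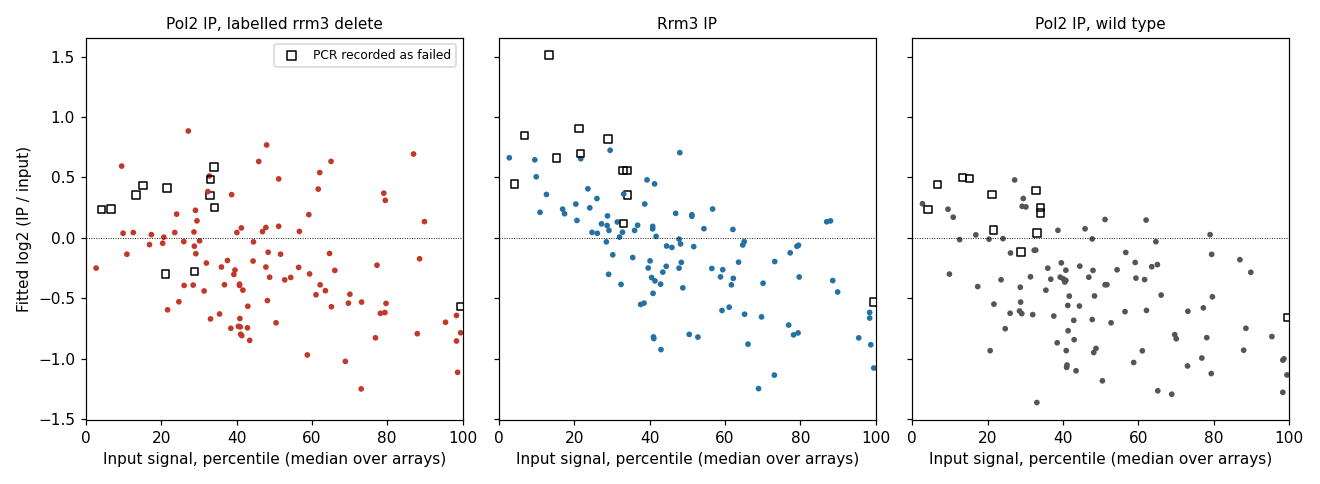
Fitted log2 ratio (y axis) of the 112 tested delta elements against their input signal as a percentile of all features (x axis, median over arrays), in the Pol2 IP labelled rrm3 delete, the Rrm3 IP and the wild-type Pol2 IP; open squares mark products recorded as failed PCRs. Bright elements lie lower than dim ones, with Spearman correlations of -0.36, -0.68 and -0.50, and 10 of the 12 squares belong to the dimmest 38 elements.

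The difference of rrm3 delete minus wild type had a Spearman correlation of 0.22 with brightness across the members, and that of the Rrm3 IP minus wild type -0.28. The median of the first was 0.21 in the 38 dimmest, 0.27 in the middle 37 and 0.26 in the 37 brightest. Other features within the same bounds had -0.01, -0.02 and 0.01. The difference of the Rrm3 IP minus wild type had medians of 0.40, 0.32 and 0.16, against 0.13, 0.01 and -0.09 for other features. YCRCDELTA6, YDRWDELTA12, YDRWDELTA23, YELCDELTA4 and YERWDELTA21, all lower in the 3 groups, had a median input percentile between 98.4 and 99.6 and saturated pixels on 11, 5, 6, 5 and 3 of the 15 grouped arrays. The part of saturation in their low ratios was not tested. YHRCDELTA11, YHRWDELTA9, YHRCDELTA5 and YHRCDELTA4 lay at 73.1, 68.9, 50.5 and 43.0 with no saturated pixels.

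Most delta spots whose PCR was recorded as failed lay above the median of the other members. The 12 tested delta elements with such a record had fitted medians of 0.30 in rrm3 delete, 0.61 in the Rrm3 IP and 0.24 in wild type, against -0.25, -0.08 and -0.45 for the other 100. They included 6 of the 9 members called higher in the Rrm3 IP, among them YILCDELTA5, YJLWDELTA16, YILCDELTA2 and YKRCDELTA11. An exception was YDRWDELTA12, recorded as failed and called lower in all 3 groups at -0.57, -0.53 and -0.66. Their median input percentile was 25.2, against 44.4. The 1193 other features with the record also had positive medians, at 0.19, 0.31 and 0.16. With failed products left out, 3 delta elements were higher in the Rrm3 IP, against 10.1% of all features. The median over all delta elements in wild type was then -0.44.

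By position in the name, among the chromosomes with at least 5 members, VIII had the lowest median in all 3 groups, while X had the highest in rrm3 delete and wild type but not in the Rrm3 IP. The 8 members on VIII had fitted medians of -0.64 in rrm3 delete, -0.73 in the Rrm3 IP and -0.82 in wild type, and the 9 on X had 0.24, 0.11 and 0.04. On the other such chromosomes the median lay between -0.47 on IV and 0.043 on XV in rrm3 delete, between -0.46 on IV and 0.24 on XV in the Rrm3 IP and between -0.66 on IV and -0.20 on XVI in wild type. The 52 members on the C strand and the 60 on the W strand had medians of -0.23 and -0.23 in rrm3 delete, -0.13 and -0.0030 in the Rrm3 IP and -0.56 and -0.33 in wild type. The 40 on left arms and 72 on right arms had -0.08 and -0.27, 0.0060 and -0.06, and -0.32 and -0.48. These groupings were looked at together and have no test. Products came from source plates 17 and 1 for 30 and 80 tested members, with rrm3 delete minus wild type medians of 0.05 and 0.32, and the part of the plate was not tested.

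**Figure D5:**
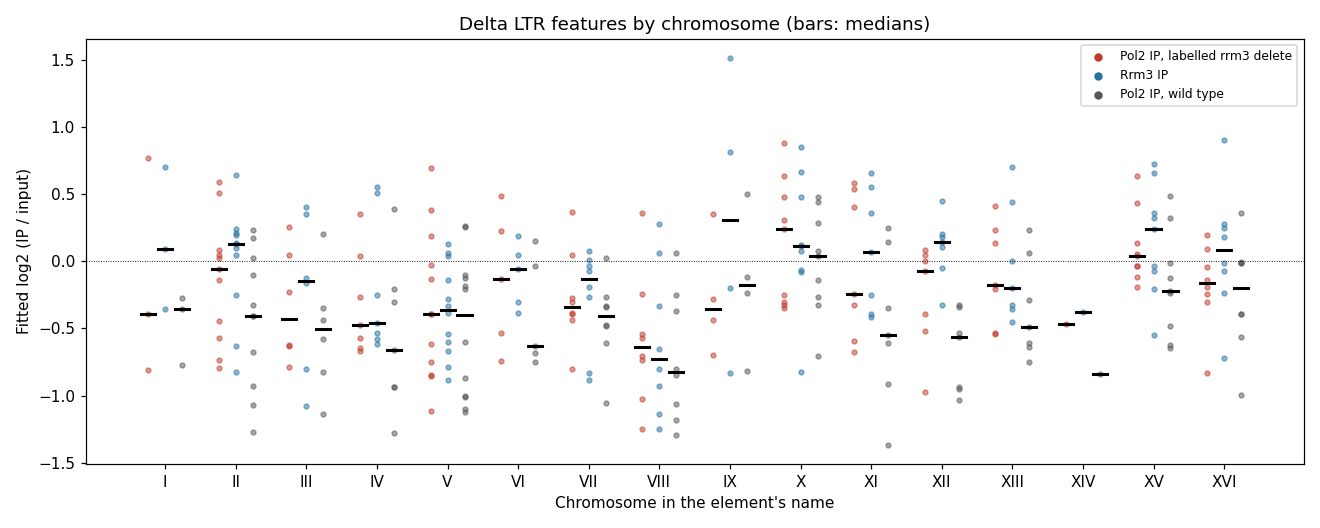
Fitted log2 ratio (y axis) of each tested delta element by the chromosome in its name (x axis), for the Pol2 IP labelled rrm3 delete, the Rrm3 IP and the wild-type Pol2 IP, with black bars at the medians. The bars of chromosome VIII lie at -0.64, -0.73 and -0.82 and those of chromosome X at 0.24, 0.11 and 0.04.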

How the data were processed

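Spot intensity values (channel medians with local background subtracted), quality flags, records of failed PCR products and the percent of saturated pixels were used as deposited, per the file headers. The series text describes the authors' log2 ratios of IP over input as median-normalised. The deposited log2 table followed the scanner ratios, with absolute correlations of 0.999 or more on all 16 arrays; dye-swapped arrays and array 136 are turned in it, and its columns have medians from -0.46 to 0.09. The sources used here name neither image software nor genome build.

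Flagged spots and signals at or below 0 were left out, spots of one name were averaged, and each array was centred on its median, with no loess or quantile step. Features with 3 or more arrays in each group entered 1 limma 3.58.1 fit (R 4.3.3) with group means and a dye term. Empirical Bayes had 6.12 prior degrees of freedom, p-values were two-sided and Benjamini-Hochberg adjusted over 12380 features. The fit was tested on simulated data. The number of arrays limits the precision. Array 231, whose labels disagree on the deletion, entered no comparison. Named members are the 5 highest and 5 lowest per comparison and YALCDELTA2, other names standing in counts or shared sets. The members and lists were chosen with earlier results of these data known. Alternatives covered direction, arrays, background, normalisation, filters and variance model.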

Additional observations from a re-analysis of the deposited data

Results flagged for a closer look

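Of 30 sets of array values tested for an array far from its group, 2 stood out, and chance gives about 1 in 20. YALCDELTA2 measured 1.37 on array 182 labelled rrm3 delete, while the other 5 arrays lay between 0.49 and 0.76. YHRWDELTA9 measured 0.14 on Rrm3 IP array 088, while the other 4 lay between -1.83 and -1.29. YERWDELTA17 differed between rrm3 delete and wild type by 0.87 in the test of the difference itself.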

How the results depend on the processing

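No paired analysis was possible because array numbers are unique and pair no samples. The planned block for scan or print batch was not run, as the file headers name no batch, and the 2 arrays of the other layout, 031 and 041, are all in the Rrm3 IP. The counts of delta elements moved with direction, dye and single arrays, and those over all features moved too. In wild type the 25 lower became 1 with array 136 as labelled, 15 with no dye term, 0 with forward arrays alone (2 wild-type arrays), 14 without arrays 136 and 182, and 7 with swapped arrays alone, an alternative chosen after seeing the data that covers 48 delta elements. Over all features 0.226%, 1.76%, 0.0761%, 1.49% and 1.38% were lower in these settings, against 2.37%. In rrm3 delete the 24 lower became 13 with array 136 as labelled, 10 with forward and 11 with swapped arrays alone, and the 8 higher became 5 with no dye term, 0 with forward and 5 with swapped arrays alone, and 13 without arrays 031 and 041, while over all features 5.70%, 2.09% and 5.29% were lower, against 6.95%, and 8.02%, 2.96%, 5.88% and 15.4% higher, against 9.39%. In the Rrm3 IP the 22 lower became 14 with array 136 as labelled and 13 without arrays 031 and 041. Over all features 11.1% and 12.6% were lower in these settings, against 12.7%, so both counts were near those shares. In the Rrm3 IP the 22 became 6 with forward and 6 with swapped arrays alone, against 4.32% and 7.74% of all features. The 9 higher there became 1 with no dye term, 0 with forward and 3 with swapped arrays alone, 4 with no filter on quality flags and 3 with failed PCR products left out (8.03%, 1.37%, 5.50%, 7.91% and 10.1% of all features, against 11.0%). The 1 delta element higher in rrm3 delete than in wild type became 4 without arrays 031 and 041 (1.97% of all features, against 0.557%), and 0 with array 136 as labelled, no dye term, forward arrays alone, swapped arrays alone, without arrays 136 and 182, no background subtraction and normexp correction (at most 0.387% of all features). The 0 higher in the Rrm3 IP than in rrm3 delete became 1 without arrays 136 and 182, with no background subtraction and with dim spots left out (0.347%, 0.331% and 0.640% of all features, against 0.412%).

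Leaving out 1 array gave 6 to 35 lower in wild type, 4 to 12 higher and 15 to 31 lower in rrm3 delete, 2 to 10 higher and 15 to 25 lower in the Rrm3 IP, 0 to 3 higher in rrm3 delete minus wild type, and 0 to 3 higher and 0 to 1 lower in the Rrm3 IP minus rrm3 delete. Over these settings 0.452% to 5.22% of all features were lower in wild type. In rrm3 delete 6.03% to 14.7% of all features were higher and 3.84% to 11.6% lower. In the Rrm3 IP 4.94% to 12.6% were higher and 8.07% to 13.6% lower. For rrm3 delete minus wild type 0.0646% to 1.91% were higher. For the Rrm3 IP minus rrm3 delete 0.105% to 1.44% were higher and 0.937% to 3.32% lower. The median of the fitted values was -0.56 in wild type with forward arrays alone, a move beyond the SD between arrays, and 0.011 in rrm3 delete with swapped arrays alone, against -0.23. With 1 array left out it ran from -0.15 (without array 184) to 0.0012 (without array 185) in the Rrm3 IP, against -0.06, and from 0.040 (without array 088) to 0.18 (without array 031) in the Rrm3 IP minus rrm3 delete, against 0.10. In the Rrm3 IP minus rrm3 delete YALCDELTA2, near 0 at -0.06, changed sign to 0.030 without arrays 136 and 182, 0.024 without arrays 031 and 041, 0.10 with no background subtraction, 0.12 with normexp, 0.028 with dim spots left out and 0.076 with swapped arrays alone, and ran from -0.47 to 0.30 with 1 array left out. YERCDELTA10 in the Rrm3 IP minus wild type changed to 0.10 without arrays 031 and 041 and 0.029 with dim spots left out, and ran from -0.71 to 0.036 with 1 array left out. In wild type YJLWDELTA16 changed to -0.066 with no dye term and -1.15 with forward arrays alone, where YILCDELTA5 was at -0.63 and YOLWDELTA6 at -0.051, and in the Rrm3 IP YJLWDELTA16 was at -0.50. Of 1857 repeats of single named values, 1720 kept their direction and their side of the threshold, 105 lost a call, 15 gained one and 17 changed sign. The cause of these changes was not tested. Fits with fewer arrays also have less power.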

Other observations

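Array 231, a Pol2 IP with the dyes swapped whose labels contradict each other on the rrm3 deletion, measured 114 delta elements. Their median was -0.57, the lowest of all 16 arrays, and 83.3% lay below 0. RRM3 (YHR031C) ranked at percentile 20.1 of input signal there. YERWDELTA17 measured -0.72, YALCDELTA2 -0.56 and YOLCDELTA8 -0.30 on it, and YILCDELTA5 measured 1.64.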
